A study of Mus musculus with 18 samples.

Results

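The level of 7 genes that restrain mitogen-activated protein kinase (MAPK) signalling, Dusp4, Dusp6, Spry1, Spry2, Spry4, Spred1 and Spred2, was followed through the induction and culture of mouse primordial germ cell-like cells (PGCLCs), which are made from embryonic stem cells (ESCs) and resemble the precursors of sperm and eggs. The genes were taken by symbol from 34850 genes with a value in the files. All 7 passed the filter on low values, at least 10 RPM (reads per 1000000 reads assigned to genes, as the sum of each library's values shows) in at least 2 libraries, and were tested among 9561 genes.

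Growth factors such as FGF, SCF and EGF bind receptor tyrosine kinases, which act through RAS, RAF and MEK to activate the kinase ERK. Active ERK induces genes whose products damp the same pathway: dual-specificity phosphatases (Dusp) remove phosphate from MAP kinases, Sprouty proteins (Spry) act between receptor and RAF, and Spred proteins hold back RAS together with neurofibromin. Transcripts of these genes are widely used as a readout of pathway activity, and both KIT and FGF receptor signalling are known to act on germ cell precursors.

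The study examined how cyclosporin A (CsA), an immunosuppressant that inhibits calcineurin, and FGF signalling bear on PGCLC growth and survival in culture. RNA 3′ ends were sequenced with SC3-seq, which amplifies cDNA from small amounts of RNA, in 18 libraries, 2 for each of 9 groups. ESCs, epiblast-like cells (EpiLCs) and day-4 PGCLCs were of strain C57BL/6. ESCs were kept with LIF, the MEK inhibitor PD0325901 and the GSK3 inhibitor CHIR99021. EpiLCs were made from ESCs with activin A at 20 ng/ml and FGF2 at 12 ng/ml, and PGCLCs were induced from EpiLCs of day 2 for 4 days with BMP4 at 500 ng/ml, SCF at 100 ng/ml, EGF at 50 ng/ml and LIF. The 4 groups of PGCLCs cultured for a further 7 days (d4c7) were of strain B6D2F1. They grew on m220-5 feeder cells with SCF at 100 ng/ml and are labelled FR10 (10 µM forskolin and rolipram, which raise cAMP), CsA, FGF10 and FGF2. All ESC-derived groups carried the Blimp1-mVenus and Stella-ECFP reporters (BVSC). Day-4 and cultured PGCLCs were sorted for mVenus, whereas ESCs and EpiLCs were not sorted. Germ cells of E9.5 embryos (B6D2F1 x C57BL/6) carrying Stella-EGFP spent 5 days on the same feeders (E9.5c5) with FR10 or CsA before being sorted for EGFP. Neither the amounts of CsA and of FGF, nor whether FR10 was present in those cultures, nor what the 10 of FGF10 stands for is given in the sources used here.

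The 7 genes lie on 7 chromosomes. In the GENCODE M21 annotation of GRCm38 (mm10), Dusp4 spans chr8:34807297-34819894, Dusp6 chr10:99263231-99267489, Spry1 chr3:37639947-37644598, Spry2 chr14:105891947-105896819, Spry4 chr18:38586247-38601415, Spred1 chr2:117121374-117182279 and Spred2 chr11:19924375-20024026. No other annotated gene overlapped the last 2000 bases of any of the 7, where 3′-end reads fall.

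Depth, inferred from the RPM value of 1 read, was 2129326 to 7547917 reads per library, so 3 reads corresponded to 0.397 to 1.41 RPM. This limit covers counting error only. Over all tested genes the median difference between the libraries of a group was 0.19 to 0.29 on the log2 scale in 6 groups, 0.43 in E9.5c5 FR10, 0.47 in d4c7 FGF2 and 0.60 in E9.5c5 CsA. Marker lists followed the labels: naive pluripotency markers summed to 1546 to 1560 RPM in ESCs, epiblast markers to 2348 to 2437 RPM in EpiLCs, and germ cell markers to 1565 RPM or more in every PGCLC and germ cell library. The labels call the cultured libraries biological replicates. Nothing says so for ESCs, EpiLCs and day-4 PGCLCs, whose libraries may be technical replicates. All p-values use 1 spread per gene shared over the 9 groups, part of which may thus be technical.

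RefSeq promoters (GRCm38.p6, 250 bases before to 50 after the start) were matched for 5 of the 7 genes. The stretches before the gene body of Dusp6, Spred1 and Spred2, which were lower with FGF2 in cultured PGCLCs, are shown 5′ to 3′, all on the plus strand. They are chr10:99262981-99263230, chr2:117120821-117121070 and chr11:19924192-19924374, with capitals marking CC and GG with any 6 bases between them. A serum response element fits this pattern, but the pattern alone does not make one.
Dusp6: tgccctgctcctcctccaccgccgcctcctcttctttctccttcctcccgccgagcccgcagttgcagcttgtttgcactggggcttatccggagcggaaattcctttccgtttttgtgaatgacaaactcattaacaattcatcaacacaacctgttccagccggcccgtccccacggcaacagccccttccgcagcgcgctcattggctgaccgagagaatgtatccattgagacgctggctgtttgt
Spred1: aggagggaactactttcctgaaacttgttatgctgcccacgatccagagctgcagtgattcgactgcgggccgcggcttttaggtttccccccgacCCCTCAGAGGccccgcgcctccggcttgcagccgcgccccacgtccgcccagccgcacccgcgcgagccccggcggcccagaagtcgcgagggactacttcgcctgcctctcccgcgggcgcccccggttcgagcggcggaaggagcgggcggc
Spred2: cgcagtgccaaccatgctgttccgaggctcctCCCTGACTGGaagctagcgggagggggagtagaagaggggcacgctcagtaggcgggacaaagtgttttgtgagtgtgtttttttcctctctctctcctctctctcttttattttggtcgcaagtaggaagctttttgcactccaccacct

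Both strands of the 5 promoters were searched for letters of sites bound by factors downstream of ERK or cAMP. The cAMP response element TGACGTCA was in none of the 5 and in 1.79% of 32851 promoters. Its core TGACG, which the full element contains, was in that of Spred2, read on the minus strand, and in 20.8% of all promoters. The AP-1 site TGANTCA was in none of the 5 and in 7.81% of all. The ETS site CCGGAA was in that of Spry2 and in 14.9% of all. The serum response element in its stricter form was in none of the 5 and in 0.183% of all, and the loose form, which contains it, was in 4 of the 5 and in 73.3% of all. The windows that hold the TGACG and CCGGAA matches, in capitals, lie at chr11:19924379-19924408 (plus strand) and chr14:105896770-105896799 (minus strand).
Spred2: ccgctgggaagaCGTCAtcgcttccgccct
Spry2: gaggtcatctatcCCGGAAtccgggagggt

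All 7 genes were higher in day-4 PGCLCs than in ESCs, with Dusp4 changing most of the 7. Their median log2 difference was 2.23, against 0.34 over all tested genes, and 24.3% of all tested genes were called higher (limma on log2(RPM + 1), Benjamini-Hochberg adjusted p under 0.05). The calls fell at different steps. Dusp4 and Dusp6 were called higher at the step from ESC to EpiLC, where 7.09% of all tested genes were. Dusp4, Spry4 and Spred2 were called higher at the step from EpiLC to day-4 PGCLC, where 27.5% were. Cell state and medium differ between these groups, with a MEK inhibitor in ESCs, and only day-4 PGCLCs were sorted. The effects of these differences cannot be told apart.

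**Figure D1:**
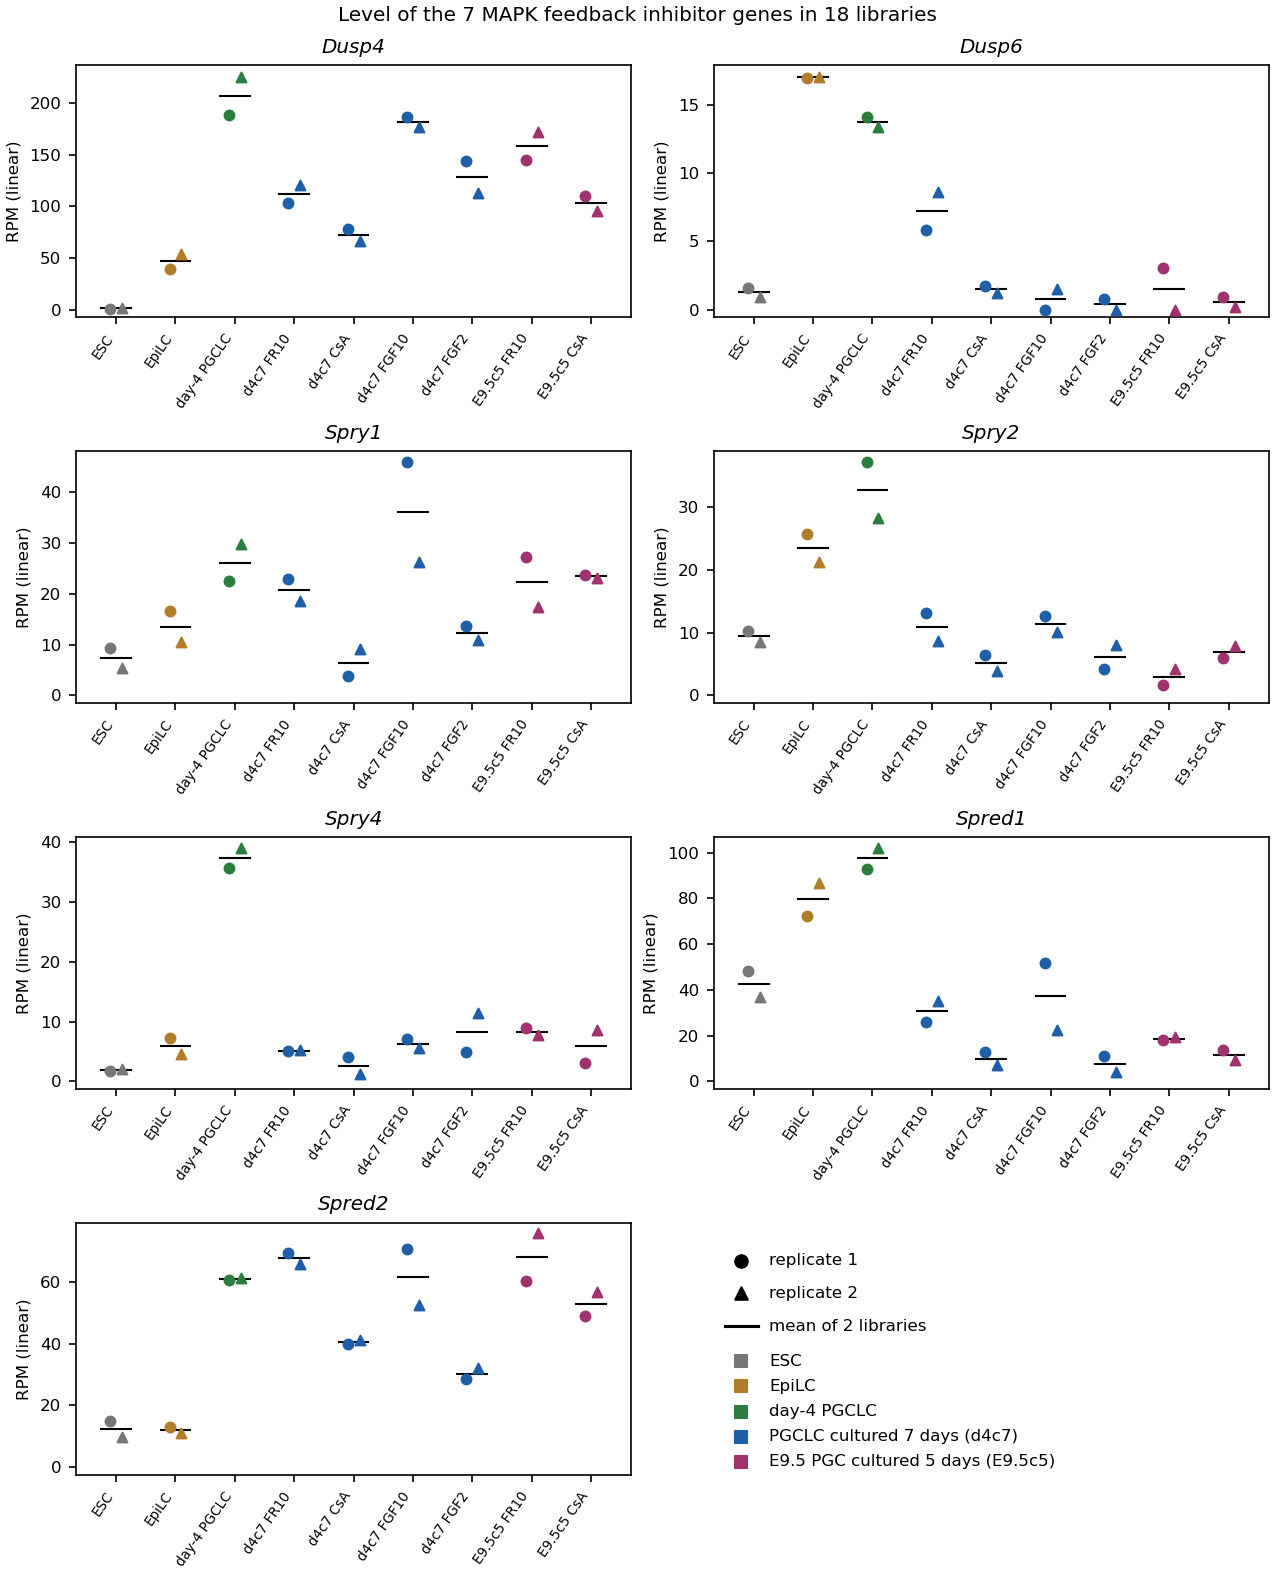
RPM (linear axis) of each gene in the 18 libraries by group, with circles and triangles for replicates 1 and 2 and a line at their mean. Dusp4, Spry2, Spry4 and Spred1 stood highest in day-4 PGCLCs, and Dusp6 in EpiLCs.

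Dusp4 encodes a nuclear phosphatase that acts on ERK and other MAP kinases. Its level was 1.06 and 1.48 RPM in the 2 ESC libraries, 39.4 and 54.2 RPM in EpiLCs, and 188 and 225 RPM in day-4 PGCLCs. The 3 groups were well separated and each step was upward. EpiLCs exceeded ESCs by 4.39 ± 0.23 on the log2(RPM + 1) scale (limma estimate ± SE, n = 2 libraries per group here and below; adjusted p = 9.1e-10). Day-4 PGCLCs exceeded EpiLCs by a further 2.13 ± 0.23 (adjusted p = 2.31e-06). Both steps were called in every fit that left out 1 of their libraries.

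Dusp6 encodes a cytoplasmic phosphatase with preference for ERK. It was at 1.59 and 0.925 RPM in ESCs, 17.0 and 17.0 RPM in EpiLCs, and 14.1 and 13.3 RPM in day-4 PGCLCs. ESCs stood apart from both later groups, and the day-4 values were just below those of EpiLCs. EpiLCs exceeded ESCs by 3.01 ± 0.62 (adjusted p = 0.00238), and day-4 PGCLCs exceeded ESCs by 2.72 ± 0.62 (adjusted p = 0.00267). Neither difference was called with a pseudocount of 0.1 RPM (adjusted p = 0.12 and 0.0971). In reads, ESC libraries held 12 and 5 for Dusp6 and EpiLC libraries 89 and 44.

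The 3 Sprouty genes encode inhibitors that are themselves induced by receptor tyrosine kinase signals. Spry1 stood at 9.27 and 5.36 RPM in ESCs, 16.6 and 10.4 RPM in EpiLCs and 22.5 and 29.7 RPM in day-4 PGCLCs. No group overlapped the next, but the libraries of a group lay far apart for the size of each step. Over both steps Spry1 was higher by 1.73 ± 0.43 (adjusted p = 0.00516), while neither single step was called (adjusted p = 0.247 and 0.101). The call over both steps was lost without ESC replicate 2 (adjusted p = 0.0778) and without day-4 PGCLC replicate 2 (adjusted p = 0.0538).

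Spry2 was at 10.3 and 8.51 RPM in ESCs, 25.7 and 21.3 RPM in EpiLCs and 37.1 and 28.2 RPM in day-4 PGCLCs. The groups were in the same order as for Spry1, again without overlap. The rise from ESC to day-4 PGCLC was 1.68 ± 0.44 (adjusted p = 0.00707), and the EpiLC step measured 1.23 ± 0.44 (adjusted p = 0.0698), called with a pseudocount of 10 RPM (adjusted p = 0.0127). The call over both steps was lost without ESC replicate 2 (adjusted p = 0.064) and without day-4 PGCLC replicate 1 (adjusted p = 0.0727).

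Spry4 was called at the later step only. It was at 1.72 and 2.03 RPM in ESCs, 7.24 and 4.64 RPM in EpiLCs and 35.7 and 39.0 RPM in day-4 PGCLCs, the highest group by a wide margin. Day-4 PGCLCs exceeded EpiLCs by 2.49 ± 0.52 (adjusted p = 0.00119) and ESCs by 3.74 ± 0.52 (adjusted p = 4.02e-05). The ESC to EpiLC difference of 1.25 ± 0.52 was not called (adjusted p = 0.122), though these groups did not overlap. Whether the rise differed between the steps was not tested.

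Of the 2 Spred genes, Spred2 was called at the later step and Spred1 at neither single step. Spred1, the gene mutated in Legius syndrome, was at 48.4 and 37.0 RPM in ESCs, 72.4 and 86.7 RPM in EpiLCs and 93.0 and 102 RPM in day-4 PGCLCs. Its groups did not overlap, and its total rise of 1.18 ± 0.44 was the smallest of the 7 (adjusted p = 0.0468). That call was lost without any single one of the 4 libraries, with adjusted p of 0.0935 to 0.234, with median-ratio scaling (adjusted p = 0.156), with a pseudocount of 0.1 RPM (adjusted p = 0.0671) and with no filter (adjusted p = 0.0991).

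Spred2, which encodes a second RAS-ERK inhibitor of the same family, was at 15.1 and 9.80 RPM in ESCs, 13.0 and 11.2 RPM in EpiLCs and 60.6 and 61.2 RPM in day-4 PGCLCs. ESC and EpiLC values overlapped, and both day-4 libraries lay far above them. The rise from EpiLC to day-4 PGCLC was 2.24 ± 0.27 (adjusted p = 6.61e-06). For Spred1 the same step went from a mean of 79.5 RPM to 97.5 RPM and was not called.

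**Figure D2:**
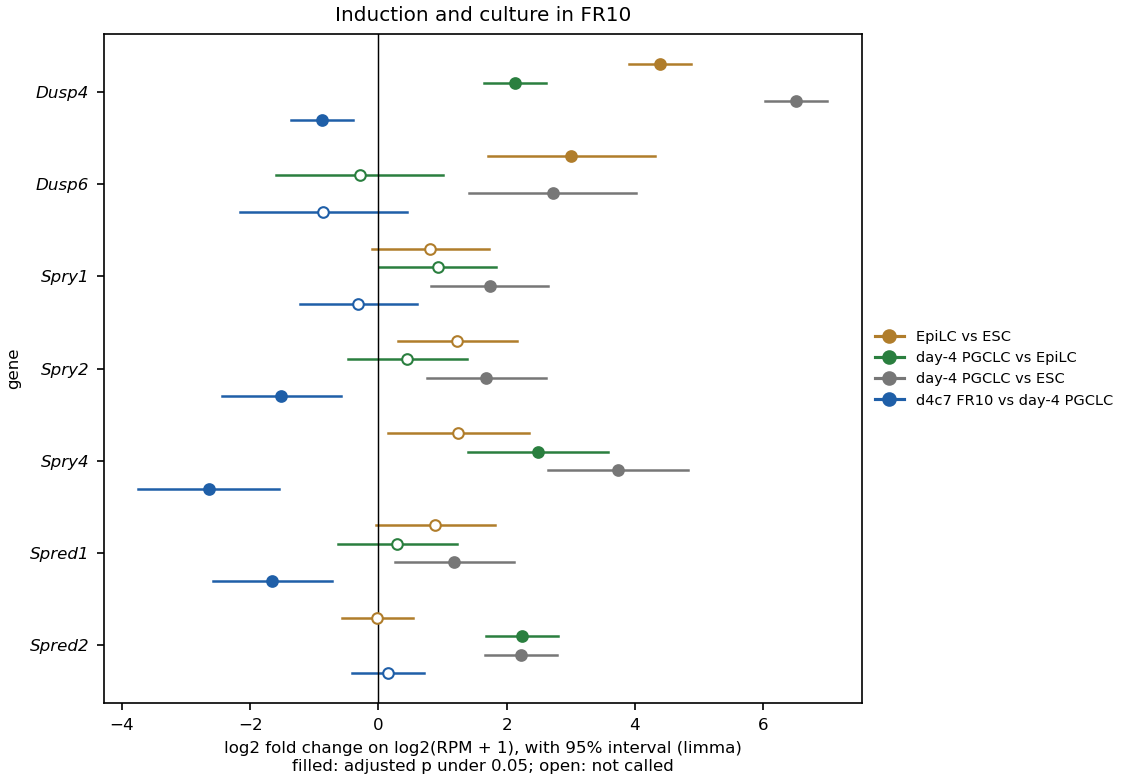
Log2 differences of each gene with 95% intervals for the 3 induction comparisons and for culture in FR10 against day-4 PGCLCs; filled points have adjusted p under 0.05. All 7 grey points (day-4 PGCLC against ESC) are filled, from 1.18 for Spred1 to 6.52 for Dusp4.

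Median-ratio scaling lowered the median differences of day-4 PGCLCs from ESCs and from EpiLCs, for these genes and for all tested genes alike. For EpiLC against ESC it moved the median over the 7 from 1.23 to 1.25 and that of all tested genes from 0.0093 to 0.021. Day-4 PGCLCs exceeded both ESCs and EpiLCs by 0.34 in the median of all tested genes. With median-ratio scaling the calls over all genes against ESCs went from 2328 higher and 971 lower to 1357 and 1516, and against EpiLCs from 2629 and 1155 to 1610 and 1826. The median over the 7 went from 2.23 to 1.87 against ESCs and from 0.92 to 0.56 against EpiLCs, and that of all tested genes to -0.01 in both. Under that scaling 6 of the 7 genes were still called higher against ESCs, with Spred1 lost, and 3 against EpiLCs. Feeder and fibroblast markers, 14 genes, summed to 8.48 to 9.06 RPM in ESCs, 88.2 to 90.9 RPM in EpiLCs and 10.3 to 19.5 RPM in day-4 PGCLCs. Their part in these results was not tested.

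The wider pathway was mixed during induction. Of all tested genes, 24.3% were called higher and 10.2% lower in day-4 PGCLCs than in ESCs. These shares were 7.09% and 8.86% from ESC to EpiLC, and 27.5% and 12.1% from EpiLC to day-4 PGCLC. Of 11 other tested feedback inhibitor genes, 6 were higher and none lower in day-4 PGCLCs than in ESCs (median 1.48). Among them Dusp5, a nuclear ERK phosphatase, was higher by 4.12 ± 0.50 (adjusted p = 1.03e-05) and Rasa1, a RAS GTPase-activating protein, by 1.52 ± 0.33 (adjusted p = 0.00195). Of 12 ERK-induced transcription factor and early genes, 7 were higher and 2 lower. Etv4, an ETS factor, was higher by 2.81 ± 0.40 (adjusted p = 4.77e-05), and Ccnd1, which encodes cyclin D1, was lower by 4.30 on the log2 scale (estimate -4.30 ± 0.58, adjusted p = 3.15e-05). At the first step alone, from ESC to EpiLC, 1 other feedback inhibitor was higher, Dusp9 (2.55 ± 0.30, adjusted p = 1.35e-05), and 1 was lower, Lrig1 (-1.43 ± 0.41, adjusted p = 0.023). ERK-induced genes had 3 higher and none lower at that step, led by Myc (3.88 ± 0.59, adjusted p = 0.000171). At the step from EpiLC to day-4 PGCLC 3 other feedback inhibitors were higher and 1, Dusp16, was lower (-1.51 ± 0.51, adjusted p = 0.0258), and ERK-induced genes had 4 higher and 3 lower. Over both steps, of the 20 genes of the cascade from adaptor to ERK, 5 were higher and 1 lower, with a median of 0.40. The share higher was near the 24.3% of all tested genes. Mapk3, which encodes ERK1, was higher by 2.26 ± 0.22 (adjusted p = 1.1e-06), and the docking protein gene Gab1 was lower (-3.85 ± 0.26, adjusted p = 2.01e-08). Of 8 receptor and ligand genes, 5 were higher and 2 lower. Kit, the SCF receptor gene, was higher by 2.57 ± 0.25 (adjusted p = 1.11e-06), and Fgf4, an FGF made by pluripotent cells, was lower (-7.32 ± 0.67, adjusted p = 6.4e-07). Of 6 cAMP response genes none was higher and 1, the phosphodiesterase gene Pde4d, was lower (-1.54 ± 0.55, adjusted p = 0.0392).

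After 7 days of culture in FR10, 4 of the 7 genes were lower than in day-4 PGCLCs and none was higher, where 8.22% of all tested genes were called lower. The 4 were Dusp4, Spry2, Spry4 and Spred1. The median over the 7 was -0.88, against -0.07 over all tested genes. Strain changed from C57BL/6 to B6D2F1 between the groups, and the effects of strain and of culture cannot be told apart. In these bulk samples, fewer cells of a type and less RNA per cell cannot be told apart.

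Dusp4 was at 103 and 121 RPM in FR10, below both day-4 libraries and above both EpiLC libraries (-0.88 ± 0.23, adjusted p = 0.0158). Spry2 was at 13.2 and 8.63 RPM, near its ESC level (-1.51 ± 0.44 against day 4, adjusted p = 0.0282). Spry4 was at 5.03 and 5.18 RPM, within its EpiLC range (-2.65 ± 0.52, adjusted p = 0.00229). Of the 4, Spry4 lost the most of its day-4 level. Spred1 was at 25.9 and 35.2 RPM, below every ESC library (-1.65 ± 0.44, adjusted p = 0.0174).

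The other 3 genes were not called. Dusp6 was at 5.81 and 8.63 RPM, below both day-4 values, with a difference of -0.86 ± 0.62 (adjusted p = 0.394). Spry1, at 22.8 and 18.6 RPM, overlapped its day-4 range. Spred2, at 69.3 and 65.9 RPM, stayed just above both day-4 libraries, while Spred1 was lower, a difference between the 2 genes that was not tested.

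Spry4 was the 1 gene of the 4 still called when any single library of the comparison was left out (adjusted p of 0.0214 to 0.0281). For Dusp4, Spry2 and Spred1 the adjusted p was 0.0548 or more in every such fit. Spry2 was also not called with a pseudocount of 0.1 RPM (adjusted p = 0.0586), and Dusp6 was called lower with one of 10 RPM (adjusted p = 0.0481). Feeder and fibroblast markers summed to 177 to 224 RPM in FR10 against 10.3 to 19.5 RPM at day 4, with Lum and Thy1 at 0 in both FR10 libraries. Their part in the result was not tested.

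Among the other pathway genes, none of the 11 feedback inhibitors was called at this step (median -0.39). Of all tested genes, 7.01% were called higher and 8.22% lower. Of the ERK-induced genes, 4 of 12 were lower and none was higher. These were Ier2 (-1.19 ± 0.26, adjusted p = 0.00578), Etv5 (-1.26 ± 0.28, adjusted p = 0.00621), Junb (-1.83 ± 0.43, adjusted p = 0.00784) and Fos (-1.92 ± 0.53, adjusted p = 0.0212). Of the cascade genes 2 were higher and 3 lower. Of 8 receptor and ligand genes Fgfr3 was the 1 called, higher by 2.44 ± 0.54 (adjusted p = 0.00597). Pde4a, which encodes a cAMP phosphodiesterase, was the 1 of 6 cAMP response genes called, also higher (1.88 ± 0.49, adjusted p = 0.016).

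In the 7-day cultures the 3 other conditions were each set against the same 2 FR10 libraries, so their differences from FR10 share those libraries. Whether FR10 was also present in those conditions, or with CsA in E9.5c5, is not given. The effects of each named factor and of a lack of FR10 thus cannot be told apart. With FGF2, Dusp6, Spred1 and Spred2 were lower and no gene of the 7 was higher, where 7.47% of all tested genes were called lower and 1.37% higher. The median over the 7 was -0.77, against -0.33 over all tested genes.

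Dusp6 was at 5.81 and 8.63 RPM in FR10 and at 0.761 and 0 RPM in FGF2. The FGF2 libraries held 2 reads for it in all and the FR10 libraries 40. The FGF2 libraries were below both FR10 libraries (-2.61 ± 0.62, adjusted p = 0.0227). The call was lost with a pseudocount of 0.1 RPM (adjusted p = 0.0701) and with no filter on low values (adjusted p = 0.0663). As a ratio of reads per depth Dusp6 was 24.6-fold lower, with an exact 95% interval of 6.38 to 210.2 for counting error only.

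Spred1 fell from 25.9 and 35.2 RPM in FR10 to 11.0 and 3.89 RPM in FGF2 (-2.03 ± 0.44, adjusted p = 0.0172). Spred2 fell from 69.3 and 65.9 RPM to 28.5 and 32.1 RPM (-1.13 ± 0.27, adjusted p = 0.0218). For both genes each FGF2 library lay below each FR10 library. The other 4 genes were not called: Spry1 was at 13.7 and 10.9 RPM with FGF2, Spry2 at 4.19 and 8.02 RPM, Spry4 at 4.95 and 11.4 RPM, and Dusp4 at 144 and 113 RPM, which overlapped its FR10 range.

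All 3 calls were lost without either FR10 library or without FGF2 replicate 2, with adjusted p up to 0.159 for Dusp6, 0.157 for Spred1 and 0.188 for Spred2. When only the 12 cultured libraries were fitted, adjusted p was 0.0779 for Spred1 and 0.0701 for Spred2, and Dusp6 did not pass the filter. Median-ratio scaling, under which all calls went from 131 higher and 714 lower to 276 and 266, left Dusp6 and Spred1 called and Spred2 at adjusted p = 0.0791. Feeder and fibroblast markers summed to 34.0 to 76.1 RPM with FGF2, below both FR10 libraries, and their part was not tested.

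**Figure D3:**
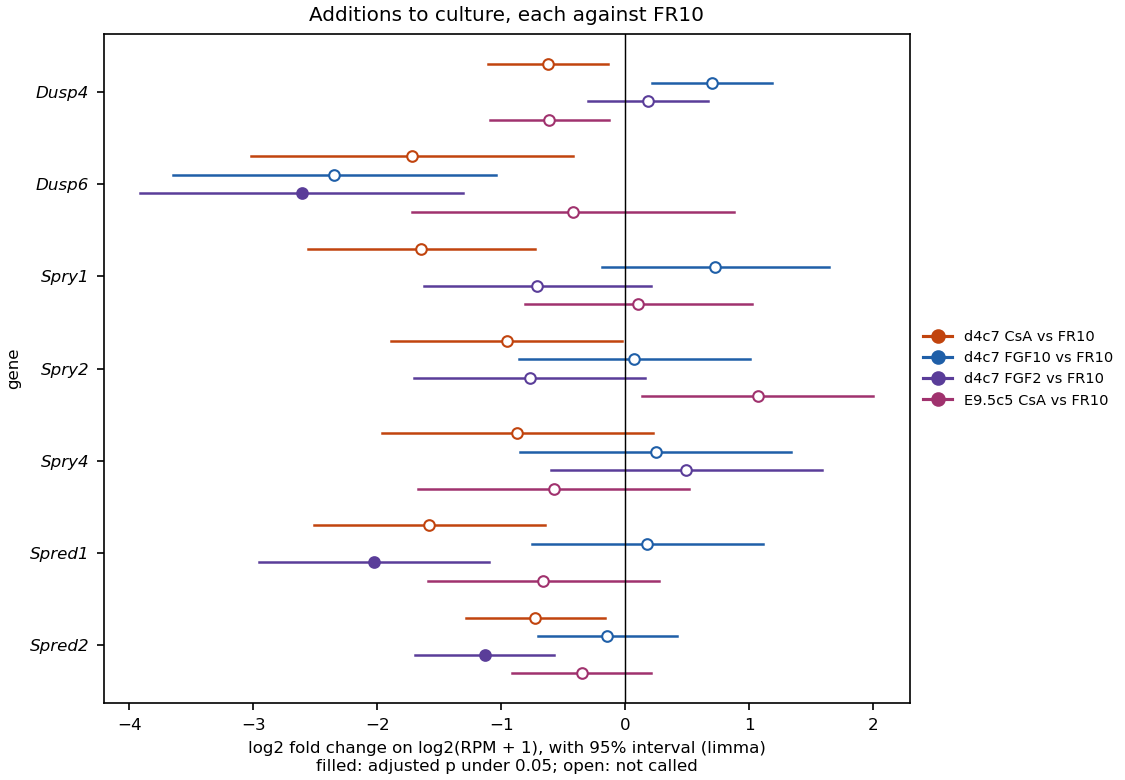
Log2 differences with 95% intervals for each other culture condition against FR10 of the same cells. Filled points have adjusted p under 0.05. The filled points are Dusp6, Spred1 and Spred2 with FGF2, all to the left of 0.

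Other genes of the pathway moved in both directions with FGF2. Dusp9, another ERK phosphatase gene, was at 78.0 and 95.02 RPM with FGF2 and 19.4 and 35.2 RPM in FR10. It was the 1 called of 11 other feedback inhibitors, higher by 1.68 ± 0.30 (adjusted p = 0.00942), while the median of those 11 was -0.87. Etv4 was at 51.0 and 51.3 RPM with FGF2 and 23.6 and 16.6 RPM in FR10, the 1 called of 12 ERK-induced genes (1.33 ± 0.40, adjusted p = 0.0469). Braf, which encodes a RAF kinase, was the 1 called of 20 cascade genes and was lower (-2.56 ± 0.52, adjusted p = 0.0119). Kit was the 1 called of 8 receptor and ligand genes and was also lower (-2.14 ± 0.25, adjusted p = 0.000714). None of 6 cAMP response genes was called.

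With CsA in d4c7 PGCLCs none of the 7 genes was called, where 0.0314% of all tested genes were. All 7 estimates were below 0, as were 6694 of 9561 over all tested genes. The median over the 7 was -0.96, against -0.24 over all tested genes. At an unadjusted p under 0.05, 6 of the 7 genes and 1317 of all tested genes (13.8%) passed. Voom in limma on the inferred reads called none of the 7 and 2 of all tested genes. With median-ratio scaling all 7 estimates were again below 0, with a median of -0.76 against -0.03.

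The CsA values were below both FR10 values for each gene. Dusp4 was at 78.1 and 66.5 RPM (-0.63 ± 0.23, adjusted p = 0.25). Dusp6 was at 1.74 and 1.21 RPM (-1.72 ± 0.62, adjusted p = 0.243). Spry1 was at 3.76 and 9.06 RPM (-1.64 ± 0.43, adjusted p = 0.14). The phosphatase and Spry1 libraries thus lay in separate ranges, as did those of the next 4 genes. How many of all tested genes were separated in this way was not counted.

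Spry2 was at 6.37 and 3.93 RPM with CsA (-0.96 ± 0.44, adjusted p = 0.352). Spry4 was at 4.05 and 1.21 RPM (-0.87 ± 0.52, adjusted p = 0.469). Spred1 was at 12.7 and 6.95 RPM (-1.58 ± 0.44, adjusted p = 0.154). Spred2, at 39.9 and 41.1 RPM, had the closest replicates (-0.72 ± 0.27, adjusted p = 0.25).

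Because the fit shares 1 estimate of spread, libraries of other groups bear on these calls. The groups with the widest replicate spread over all tested genes were d4c7 FGF2, E9.5c5 FR10 and E9.5c5 CsA. Without their replicate 2 libraries, 4 of the 7 genes were called lower with CsA and 10.3% of all tested genes were called. Adjusted p was then 0.0483 for Dusp4, 0.0265 for Dusp6, 0.0148 for Spry1 and 0.00739 for Spred1. This omission was chosen after the data were seen. Feeder and fibroblast markers summed to 33.2 to 154 RPM with CsA against 177 to 224 RPM in FR10, and their part was not tested.

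The rest of the pathway held no call with CsA. Among all tested genes 6694 of 9561 estimates were below 0, and of the ERK-induced genes 11 of 12 were (median -0.74). The lowest p among them were those of Etv4 (-1.49 ± 0.40, adjusted p = 0.142) and Myc (-2.07 ± 0.59, adjusted p = 0.158). The 20 cascade genes had a median of -0.32 and the 11 other feedback inhibitors -0.27, near the -0.24 of all tested genes. Kit had an estimate of -1.34 ± 0.25 (adjusted p = 0.0594).

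**Figure D4:**
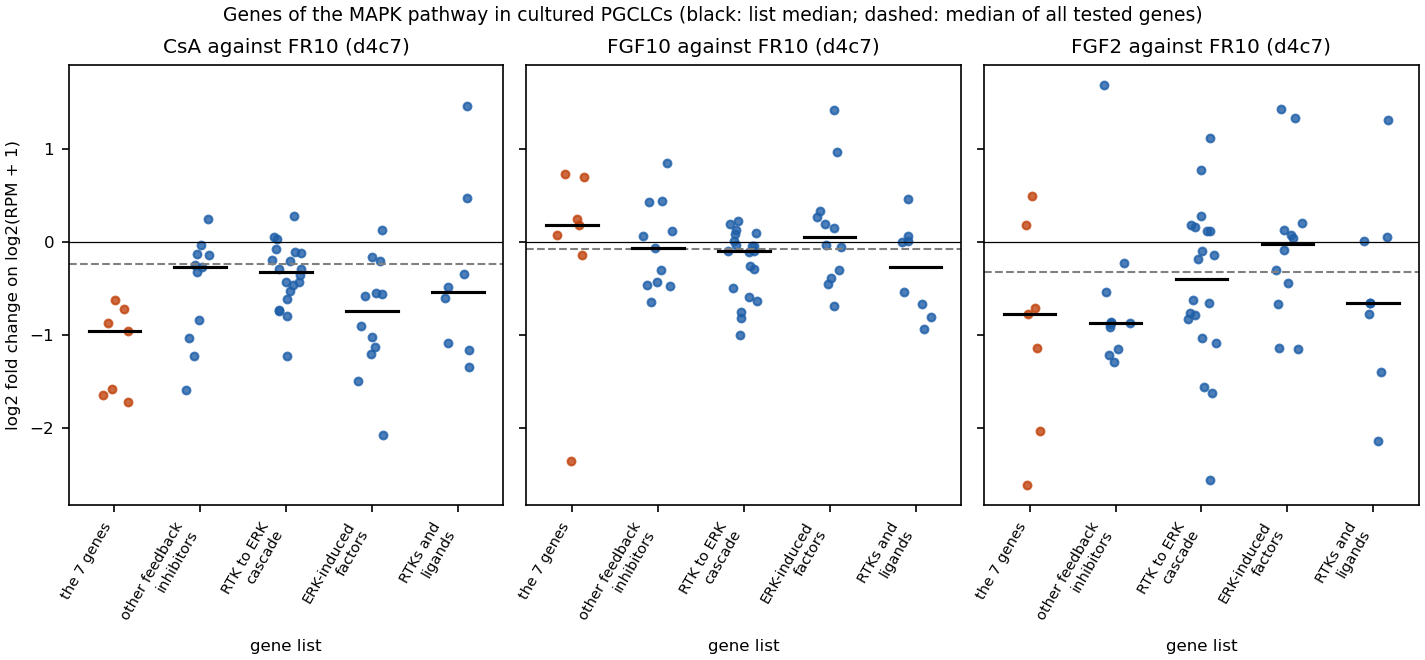
Log2 differences of single genes (points) of each pathway list in d4c7 PGCLCs with CsA, FGF10 or FGF2, each against the same FR10 libraries; black bars are list medians, the dashed line the median of all tested genes. The 7 genes have medians of -0.96, 0.18 and -0.77, against -0.24, -0.08 and -0.33 for all tested genes.

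With FGF10 none of the 7 genes, and 0% of all tested genes, were called against FR10. At an unadjusted p under 0.05, 2 of the 7 and 477 of all tested genes (4.99%) passed. Voom called none of the 7 and 0 of all tested genes. Dusp6 was at 0 and 1.53 RPM, below both FR10 libraries (-2.35 ± 0.62, adjusted p = 0.691). Dusp4 was at 187 and 177 RPM, above both FR10 libraries (0.70 ± 0.23, adjusted p = 0.878). These were the only estimates of the 7 with an unadjusted p under 0.05, and they have opposite signs.

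Spry1 was at 46.0 and 26.3 RPM with FGF10, above both FR10 libraries (0.73 ± 0.43, adjusted p = 0.979). Spred1, at 51.9 and 22.6 RPM, spanned its FR10 range. Spry2 at 12.6 and 10.1 RPM and Spred2 at 70.8 and 52.6 RPM overlapped theirs, and Spry4 was at 7.04 and 5.51 RPM. Without the 3 replicate 2 libraries named above, Dusp6 was called lower (adjusted p = 0.0306), with 41 of all tested genes called in either direction (0.435%). Feeder and fibroblast markers summed to 40.4 to 253 RPM with FGF10, on both sides of the FR10 range.

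FGF10 and CsA differed in Dusp4 and Spry1, both higher with FGF10, where 0.492% of all tested genes were called higher. Dusp4 differed by 1.32 ± 0.23 (adjusted p = 0.016) and Spry1 by 2.37 ± 0.43 (adjusted p = 0.0195). Each FGF10 library lay above each CsA library for both genes. Spred1 had an estimate of 1.76 ± 0.44 (adjusted p = 0.0774), called without the 3 replicate 2 libraries (adjusted p = 0.00294). That omission raised the share of all tested genes called in either direction from 0.628% to 11.4%. The median over the 7 was 1.12, against 0.15 over all tested genes. When only the 12 cultured libraries were fitted neither call held (adjusted p = 0.0593 for Dusp4 and 0.0691 for Spry1). Dusp4 was called in no fit that left out 1 of the 4 libraries, and Spry1 only without CsA replicate 2 (adjusted p = 0.0386).

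Etv4 and Myc, both ERK-induced, were also higher with FGF10 than with CsA. Etv4 was at 55.6 and 53.5 RPM against 8.39 and 4.83 RPM (2.91 ± 0.40, adjusted p = 0.0083). Myc differed by 3.04 ± 0.59 (adjusted p = 0.0256). They were the 2 called of 12 in that list, and all 12 estimates were above 0, as were 5985 of 9561 over all tested genes. None of the 11 other feedback inhibitors was called.

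FGF2 and CsA differed in none of the 7 genes, where 2.93% of all tested genes were called. Dusp4 came closest, at 0.81 ± 0.23 (adjusted p = 0.0623), and was called with median-ratio scaling (adjusted p = 0.0366) and without the 3 replicate 2 libraries (adjusted p = 0.0206). Of the 7 genes 3 had an unadjusted p under 0.05, of all tested genes 1922 (20.1%). Voom called none of the 7 and 237 of all tested genes. Spry4 had an estimate of 1.36 ± 0.52 (adjusted p = 0.158). Dusp9 (1.44 ± 0.30, adjusted p = 0.0217) and Etv4 (2.82 ± 0.40, adjusted p = 0.00221) were higher with FGF2, and Braf was lower (-2.26 ± 0.52, adjusted p = 0.0278).

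The FGF2 and FGF10 groups also differed in none of the 7, where 0.0941% of all tested genes were called. Spred1 came closest, at 11.0 and 3.89 RPM with FGF2 against 51.9 and 22.6 RPM with FGF10 (-2.21 ± 0.44, adjusted p = 0.0569). Spry1 had an estimate of -1.44 ± 0.43 (adjusted p = 0.139) and Spred2 of -0.99 ± 0.27 (adjusted p = 0.111). At an unadjusted p under 0.05, 4 of the 7 genes and 1587 of all tested genes (16.6%) passed. Voom called none of the 7 and 0 of all tested genes. Spred1 was called without FGF2 replicate 1 (adjusted p = 0.00298). For Dusp6 both groups were at or near the limit of detection.

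In germ cells taken from E9.5 embryos, CsA against FR10 gave no call among the 7 genes and 0% of all tested genes. Of the 7 genes 2 had an unadjusted p under 0.05, as had 703 of all tested genes (7.35%). Voom called none of the 7 and 1 of all tested genes. Dusp4 was at 145 and 171.5 RPM in FR10 and 110.3 and 95.8 RPM with CsA, a difference of -0.61 ± 0.23 (adjusted p = 0.601). Spry2 was at 1.70 and 4.27 RPM in FR10 and 6.03 and 7.92 RPM with CsA, above both FR10 libraries (1.07 ± 0.44, adjusted p = 0.607). Dusp4 and Spry2 thus had estimates of opposite sign.

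The other 5 genes varied as follows in these germ cells. Spred1 was at 18.03 and 19.3 RPM in FR10 and 13.9 and 9.43 RPM with CsA, and Spred2 at 60.2 and 75.8 RPM and 49.1 and 56.7 RPM, each lower with CsA without overlap and not called (adjusted p = 0.761 and 0.774). Spry1 was at 27.2 and 17.3 RPM in FR10, a range that held both CsA values of 23.8 and 23.2 RPM. Spry4 was at 8.85 and 7.79 RPM in FR10 and 3.01 and 8.67 RPM with CsA, with overlap. Dusp6 was at 3.06 and 0 RPM in FR10 and 0.904 and 0.189 RPM with CsA, near the limit of detection in 3 of the 4 libraries. Feeder and fibroblast markers summed to 74.5 to 78.6 RPM in FR10 and 16.8 to 69.3 RPM with CsA, and their part was not tested.

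Whether CsA differed in effect between the 2 kinds of cultured cell was tested directly as an interaction. None of the 7 genes was called, nor was any other gene (0%), while 2 of the 7 and 616 of all tested genes (6.44%) had an unadjusted p under 0.05. Those 2 were Spry2, with a difference in effect of 2.02 ± 0.62 (adjusted p = 0.677), and Spry1, with 1.75 ± 0.61 (adjusted p = 0.728). For Dusp4 the effect was -0.63 in d4c7 PGCLCs and -0.61 in E9.5c5 germ cells.

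In FR10, E9.5c5 germ cells and d4c7 PGCLCs differed in none of the 7 genes, where 0.0418% of all tested genes were called. Strain, reporter, days in culture and origin all differ between these groups and cannot be told apart. Dusp6 had an estimate of -2.01 ± 0.62 (adjusted p = 0.202), called lower without E9.5c5 FR10 replicate 1 (adjusted p = 0.0224), and Spry2 of -1.63 ± 0.44 (adjusted p = 0.178). Of the 7 genes 3 had an unadjusted p under 0.05, of all tested genes 1421 (14.9%). Voom called none of the 7 and 3 of all tested genes. Spred2 was nearly level, with means of 68.0 ± 11.0 RPM in E9.5c5 and 67.6 ± 2.39 RPM in d4c7 (SD, n = 2 each).

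Over the 9 groups the order of levels differed by gene. Dusp4 ran from day-4 PGCLCs (207 ± 26.2 RPM, SD, n = 2) through d4c7 FGF10 (182 ± 6.61 RPM) down to EpiLCs (46.8 ± 10.4 RPM) and ESCs (1.27 ± 0.297 RPM). Of its neighbours in that order, d4c7 FGF2, d4c7 FR10 and E9.5c5 CsA overlapped in turn. Dusp6 ran from EpiLCs (17.0 ± 0.0496 RPM) to day-4 PGCLCs (13.7 ± 0.541 RPM) and d4c7 FR10 (7.22 ± 2.00 RPM), each clear of the next, and the other 6 groups overlapped in a chain below 3.1 RPM. Its ESC values of 1.59 and 0.925 RPM overlapped those of d4c7 CsA and d4c7 FGF10. They lay above both d4c7 FGF2 values, 0.761 and 0 RPM.

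Among the Sprouty genes, Spry2 and Spry4 stood highest in day-4 PGCLCs, with 32.6 ± 6.30 RPM and 37.3 ± 2.34 RPM, clear of the next group. Spry1 was highest on average in d4c7 FGF10 (36.1 ± 13.9 RPM), which overlapped day-4 PGCLCs (26.1 ± 5.09 RPM), and lowest in d4c7 CsA (6.41 ± 3.75 RPM), which overlapped ESCs. Spry2 was lowest in E9.5c5 FR10 (2.99 ± 1.82 RPM) and Spry4 in ESCs (1.88 ± 0.221 RPM).

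Spred1 and Spred2 differed in where they were low. Spred1 had its 3 highest groups before culture (day-4 PGCLCs, EpiLCs and ESCs) and its lowest in d4c7 FGF2 (7.46 ± 5.05 RPM) and d4c7 CsA (9.84 ± 4.09 RPM), which overlapped. Spred2 was lowest in EpiLCs (12.1 ± 1.23 RPM) and ESCs (12.5 ± 3.75 RPM), and every PGCLC and germ cell group lay above both. Its 4 highest groups, E9.5c5 FR10, d4c7 FR10, d4c7 FGF10 and day-4 PGCLCs, overlapped in turn.

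As a description over libraries, which share groups and depth, Pearson's r of log2(RPM + 1) between Spred1 and Spred2 was -0.21 over all 18 libraries and 0.76 over the 12 cultured ones. Dusp4 and Spred2 had an r of 0.77 over the 18 and 0.37 over the 12. Dusp6 and Spred1 had 0.72 and 0.38, and Spry2 and Spred1 0.76 and 0.36. These 3 highest values over the 18 libraries were each lower over the 12, and that of Spred1 with Spred2 was higher.

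Among the tested genes, the 3 whose pattern over the 18 libraries was most like each member were named by r. The members themselves, predicted or clone genes, and Mir and Snor genes were left out of this ranking. For Dusp4 they were Esrp1 (0.96), Vamp3 (0.96) and AI314180 (0.95), and for Dusp6 Ssbp3 (0.89), Enc1 (0.89) and Bag4 (0.89). For Spry1 they were Nr1d2 (0.81), Prpf8 (0.81) and Ing5 (0.81), for Spry2 Nol7 (0.90), Bccip (0.88) and Pom121 (0.88), and for Spry4 Eif5b (0.88), Brd3 (0.85) and Bbx (0.84). For Spred1 they were Psip1 (0.92), Ppa1 (0.92) and Hells (0.91). For Spred2 they were Aldh7a1 (0.96), Dnd1 (0.95), a germ cell RNA-binding protein gene, and Whsc1 (0.95). Over the 12 cultured libraries r was 0.89 for Spred2 with Dnd1, and 0.26 for Dusp4 with Esrp1.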

How the data were processed

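SC3-seq libraries of 18 samples in 9 groups were analysed. Values are RPM as the authors deposited them, 1 value per gene. The submitters' processing notes name TopHat 1.4.1, Cufflinks 2.2.0, cutadapt 1.3 and build mm10. Of 34896 genes listed, 46 had no value. Groups came from the labels. Genes at 10 RPM or more in at least 2 libraries were fitted as log2(RPM + 1) with limma 3.58.1 in R 4.3.3 (1 mean per group over all 18 libraries, variance trend, residual df 9), with Benjamini-Hochberg adjustment over 9561 genes. The script was tested on simulated data. Fold changes understate those of low genes, and estimates smaller than their SE are given as levels. Depth was inferred from the RPM step of 1 read (99.7 to 99.9% of values whole within 0.02 reads). The alternatives were 2 pseudocounts, 2 filters, median-ratio scaling, a replicate block, the cultured libraries alone and each replicate left out. Voom and the omission of 3 libraries were added after seeing the data. Members, pathway lists and markers were chosen with earlier results of these data known. Named genes were all members, up to 4 called genes per list by smallest p (up to 2 uncalled where fewer than 2 were called), and the 3 genes most like each member. Promoters are from RefSeq.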

Additional observations from a re-analysis of the deposited data

How the results depend on the processing

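Depth limits Dusp6 most, which had 0 to 6 reads in each library cultured with CsA, FGF10 or FGF2. With 2 libraries per group, leaving out 1 assumes that the lone library varies like the other groups. The number of the 7 genes called moved with the settings. Among smaller moves, a pseudocount of 0.1 RPM gave 5 for day-4 PGCLC against ESC. It gave 3 for d4c7 FR10 against day-4 PGCLC and 2 for FGF2 against FR10. One of 10 RPM gave 3 for EpiLC against ESC and 5 for d4c7 FR10 against day-4 PGCLC. No filter and median-ratio scaling each gave 6 for day-4 PGCLC against ESC and 2 for FGF2 against FR10. The 50 RPM filter gave 2 in place of 3 for day-4 PGCLC against EpiLC. The main number and its larger moves were as follows. For EpiLC against ESC it was 2, and 1 with a pseudocount of 0.1 RPM and 1 with a filter of 50 RPM (3 of the 7 tested). It was 5 without the 3 replicate 2 libraries (Spry2, Spry4 and Spred1 added) and 4 with voom (Spry2 and Spred1 added). Calls over all tested genes also rose, from 1525 (16.0%) to 2806 (29.7%) without the 3 libraries and to 1897 with voom. For day-4 PGCLC against ESC it was 7, 3 with the 50 RPM filter and 4 to 6 with single libraries left out. For d4c7 FR10 against day-4 PGCLC it was 4, 2 with that filter and 1 in every fit with a library left out. For CsA against FR10 in d4c7 it was 0, and 4 without the 3 libraries. For FGF10 against FR10 it was 0, and 1 without the 3 libraries. For FGF2 against FR10 it was 3, 0 in the 12 cultured libraries alone (5 of the 7 tested) and 0 to 3 with single libraries left out. For FGF10 against CsA it was 2, 1 with the 50 RPM filter, 0 in the cultured libraries alone and 0 to 1 with libraries left out. For FGF2 against CsA it was 0, 1 with median-ratio scaling and 1 without the 3 libraries. For FGF2 against FGF10 it was 0, 1 with the replicate block and 0 to 1 with libraries left out. For E9.5c5 FR10 against d4c7 FR10 it was 0, and 0 to 1 with libraries left out. The 50 RPM filter and the cultured libraries alone test fewer of the 7 genes. In the cultured libraries alone, Dusp4 and Spry1 for FGF10 against CsA were still tested but not called. The same held for Spred1 and Spred2 for FGF2 against FR10. The cause of these losses, and of the moves under the other settings, was not tested.

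Among log2 differences at least as large as their SE, 3 changed sign under some setting, none of them called: Dusp6 for FGF10 against CsA was 0.0413 without FGF10 replicate 1, Spred1 for FGF2 against CsA was 0.204 without FGF2 replicate 2 and 0.204 without the 3 libraries, and Spry4 for CsA against FR10 in E9.5c5 was 0.0565 without CsA replicate 1. Over the fits with 1 library left out these ranged from -1.298 to 0.0413, from -1.096 to 0.204 and from -1.213 to 0.0565. Counts over all tested genes ranged more widely. With single libraries left out they were 732 to 838 for EpiLC against ESC (main 1525), 2253 to 2689 for day-4 PGCLC against EpiLC (3784), 1887 to 2241 for day-4 PGCLC against ESC (3299), 515 to 826 for d4c7 FR10 against day-4 PGCLC (1456), 5 to 1719 for FGF2 against FR10 (845), 0 to 25 for FGF10 against CsA (60), 13 to 985 for FGF2 against CsA (280), 1 to 704 for FGF2 against FGF10 (9), 0 to 649 for CsA in E9.5c5 (0) and 0 to 259 for E9.5c5 against d4c7 in FR10 (4). Over the other settings the count for CsA against FR10 in d4c7 was 0 to 968 (main 3).

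The labels share replicate numbers 1 and 2 across groups. Over 36 pairs of groups the deviations of same-numbered libraries correlated at -0.10 to 0.34 (median 0.0071), above 0.1 in 7, so the numbers were not taken to pair the libraries. The replicate block moved 1 call among the 7 genes, Spred1 for FGF2 against FGF10 (adjusted p = 0.0333), and it kept the counts of the other 12 comparisons.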
